A study of Mus musculus with 4 samples.

Results

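Transcripts of 84 ribosomal protein genes and their paralogs were examined, out of 24346 gene rows, in endothelial cells of the mouse heart labelled ECp53KO or wild type. The members were chosen by name alone: symbols that begin with Rpl or Rps and a digit, without 6 pseudogene rows named -ps and without 10 rows of the Rps6k kinases. They comprised 43 proteins of the large subunit, 30 of the small subunit (together called the core members), and 10 paralogs or retrocopies. The remaining member, Rps19bp1, carries an Rps name but encodes a regulator of the deacetylase SIRT1 and is no ribosomal protein.

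The cells were purified by flow cytometry from the hearts of mice labelled Young on a C57BL/6 background, and are labelled as freshly isolated, with no drug or other treatment named. The libraries ECp53KO_170 and ECp53KO_172 have the genotype label ECp53KO, and Ctrl_178 and Ctrl_182 are labelled wild type. No label spells out ECp53KO. From the series title it is taken as loss of p53 in endothelial cells. Neither the driver of the deletion nor the deleted exons were found in the sources used here. Whether the libraries come from different mice is not stated, and p-values measure only the spread between these libraries. Levels are FPKM, fragments per kilobase of transcript and per 1000000 mapped fragments. Where 2 values are given for a group, ECp53KO_170 comes before ECp53KO_172 and Ctrl_178 before Ctrl_182.

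A ribosome is built from ribosomal RNA and one copy each of most ribosomal proteins, and in growing cells the genes for these proteins are among the most strongly transcribed. Most of their messenger RNAs begin with a run of pyrimidines (the TOP motif), through which the kinase mTOR controls their translation. Several free ribosomal proteins, among them RPL5, RPL11, RPL23, RPS7 and RPS27A, bind MDM2, the ubiquitin ligase that keeps p53 low, and RPL26 binds the p53 messenger RNA. Mammals also keep paralogs of some of these genes, such as RPS27L, a p53 target in human cells. Retrocopies arise when a spliced messenger RNA is copied back into the genome, and so have no introns but can keep almost all of the parent's sequence.

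The sequences decide what a short read can tell apart. Rps27 (chr3:90212667-90213648, minus strand), its retrocopy Rps27rt (chr9:114982366-114982739, minus strand) and its paralog Rps27l (chr9:66944624-66949522, plus strand) are shown because 51-base reads within the coding sequence can tell the paralog from Rps27 but not the retrocopy. Over the 252 coding bases, Rps27rt had 0 mismatches to Rps27. Rps27l had 60 mismatches (76.2% identity), and no identical stretch was longer than 11 bases, against reads of 51 bases. Of the 51-base windows of the Rps27l transcript, 22% also occur in transcripts of 4 other genes. Coding sequences are from GENCODE M21 on GRCm38, and capitals in Rps27l mark bases that differ from Rps27.
Rps27 and Rps27rt: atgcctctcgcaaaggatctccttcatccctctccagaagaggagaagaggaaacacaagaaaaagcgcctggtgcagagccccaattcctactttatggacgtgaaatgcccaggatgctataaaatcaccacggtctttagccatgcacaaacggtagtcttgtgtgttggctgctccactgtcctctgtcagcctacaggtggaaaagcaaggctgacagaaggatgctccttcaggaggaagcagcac
Rps27l: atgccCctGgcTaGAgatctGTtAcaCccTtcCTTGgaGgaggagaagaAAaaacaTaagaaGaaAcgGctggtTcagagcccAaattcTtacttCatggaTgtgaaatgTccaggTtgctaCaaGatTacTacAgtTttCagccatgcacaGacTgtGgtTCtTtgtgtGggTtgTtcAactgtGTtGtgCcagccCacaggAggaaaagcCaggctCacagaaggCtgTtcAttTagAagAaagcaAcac

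The targeted gene was low where the label says so. The p53 gene Trp53 was at 4.41 and 2.45 FPKM in the ECp53KO libraries, against 52.1 and 28.8 in the controls. The groups did not overlap, and the log2 difference of -3.20 ± 0.36 (SE, n = 2 each) had a limma Benjamini-Hochberg adjusted p of 0.146, with a range of 0.0132 to 0.62 over the alternatives. Depth was estimated at 9800000 to 11200000 fragments in 3 libraries and at 22400000 in Ctrl_182. The 10 endothelial markers summed to between 5593 and 6152 FPKM in all libraries. ECp53KO_170 stood apart in erythroid and cardiomyocyte markers. Its 8 erythroid markers summed to 457 FPKM, against 37.4 to 95.7 in the other libraries. Its 10 cardiomyocyte markers summed to 454, against 233 to 257. The erythroid marker Hbb-bs had the largest ratio of any tested gene outside small RNA loci, 4785 times the mean of the other libraries. Given the sum of 457 FPKM, this row was near 0 in the other libraries, whose sums came from other erythroid markers. The ratio of this single row is therefore no measure of erythroid content. The 10 pericyte and smooth muscle markers summed to 180 and 149 FPKM in the ECp53KO libraries and to 98.1 and 117 in the controls, without overlap. None of these markers was at 0 in all libraries. The 7 fibroblast markers summed to 31.2 and 28.1 FPKM in the ECp53KO libraries and to 30.7 and 31.0 in the controls. The 9 leukocyte markers, 1 of them at 0 in all libraries, summed to 4.99 and 9.58 against 10.4 and 6.61 FPKM, lowest in ECp53KO_170.

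The core members were expressed at a high level in every library. Their median was 1247 and 779 FPKM in the ECp53KO libraries and 739 and 813 FPKM in the controls. ECp53KO_172 thus lay between the controls, and ECp53KO_170 lay above all others. Small subunit genes had medians of 1459, 950, 897 and 918 FPKM in the same order, and large subunit genes 1032, 662, 676 and 699. ECp53KO_170 was the highest library in both subunits, and ECp53KO_172 was above both controls in the small subunit and below both in the large. All 84 members together took 16.9% and 12.5% of the FPKM outside small RNA loci in the ECp53KO libraries, and 12.2% and 12.4% in the controls. The groups did not overlap in this share, with a two-sided exact permutation p of 0.333, the smallest that 2 against 2 libraries can give. With small RNA loci in the sum, the shares were 13.2%, 9.97%, 9.53% and 10.1%, and the groups overlapped (exact permutation p = 0.667). The groups also overlapped when 3 copies described below (Rpl34-ps1, Gm15772 and Gm12191) were added to the members (exact permutation p = 0.667). Outside small RNA loci, the shares were then 17.9%, 13.218%, 12.9% and 13.222%.

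**Figure D1:**
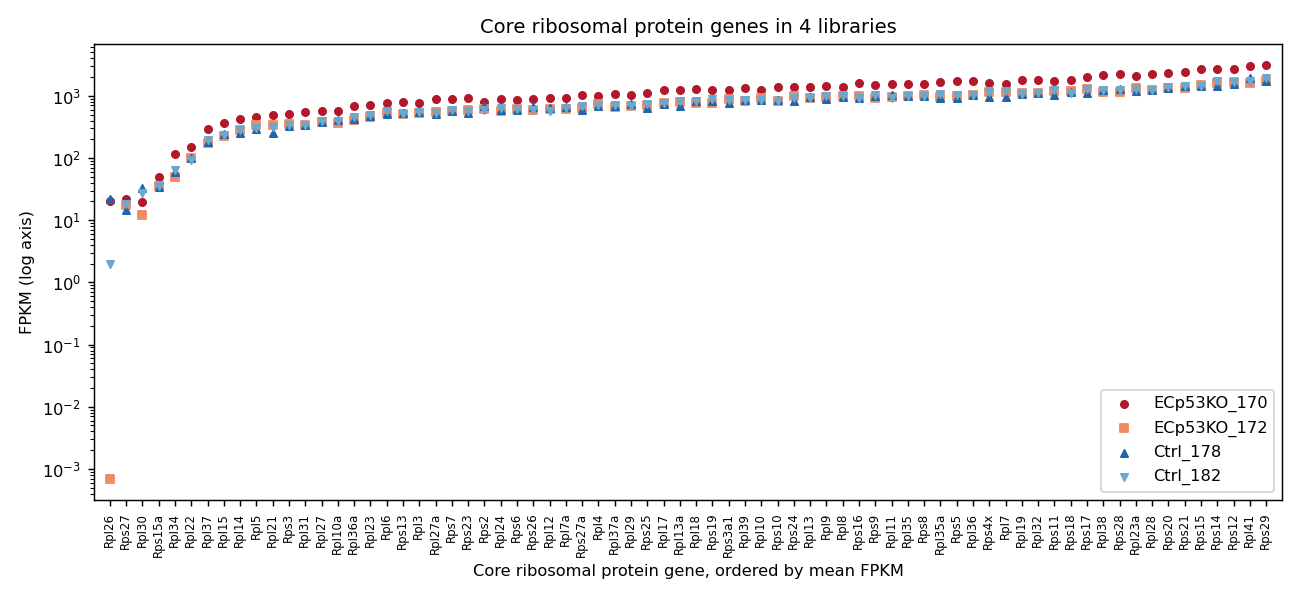
FPKM (log axis) of the core ribosomal protein genes, 1 of which is not shown, in each library, ordered by the mean of the 4 libraries, with 1 point per library. The points of ECp53KO_170 are the highest in nearly all genes, and 6 genes lie below a mean of 200 FPKM.

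The 10 members with the highest mean level were Rps27rt, Rps29, Rpl41, Rps12, Rps14, Rps15, Rps21, Rps20, Rpl28 and Rpl23a. Rps29, a zinc-binding protein of the small subunit, was at 3168 and 1744 FPKM in the ECp53KO libraries and at 1730 and 1909 in the controls. Rpl41, the smallest ribosomal protein, was at 2998 and 1589 against 1917 and 1761 FPKM. In both genes ECp53KO_170 was high, ECp53KO_172 was within or below the range of the controls, and the groups overlapped. Rps14, a small subunit protein lost in the 5q- syndrome, was also highest in ECp53KO_170, with 2661 and 1628 against 1442 and 1733 FPKM.

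No member passed the test between the groups. Of the 82 members fitted, 0 were called higher and 0 lower by limma at an adjusted p of 0.05, where 0.0265% of all 11332 genes tested were called higher and 0.0882% lower, and 0 were called under any alternative tried. At an unadjusted p of 0.05, 1 member was higher (Rpl37rt) and 1 lower (Rpl30), against 1.97% and 2.82% of all genes. A positive difference was found in 78 of the 82 members, against 51.7% of all genes, and the median log2 difference was 0.31, against 0.01 over all genes. Without overlap between the groups, 21 members were higher and 1 was lower, against 19.1% and 16.8% of all genes.

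That shift rested on a single library. ECp53KO_170 was the highest of the 4 libraries in 79 of the 82 members, against 36.3% of all genes. Without it the median difference was -0.01, with 39 of the 82 members positive. Without ECp53KO_172 it was 0.64. In the 73 core members, ECp53KO_172 lay between the controls in 26, above both in 18 and below both in 29. The erythroid and cardiomyocyte sums above are highest in the same library, and their part in the result was not tested. In bulk RNA of sorted cells, a change in the cell mix and a change in RNA per cell cannot be told apart.

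Within ECp53KO_170, the excess differed between genes with their length. Over the 67 core members above 200 FPKM, its level was 1.28 (Rps2) to 1.85 (Rps28) times the mean of the other 3 libraries, with a median of 1.56. Rps28, a small subunit protein with 207 coding bases, was at 2259 and 1133 FPKM in the ECp53KO libraries and at 1277 and 1260 in the controls. Rps2, with 879 coding bases, was at 799 and 607 against 688 and 583 FPKM. The short gene thus stood far above the rest in ECp53KO_170 and lowest in ECp53KO_172, and the long gene differed less.

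Across the 67 genes, the Spearman correlation of the ratio of a library to the mean of the others with coding length was -0.64 for ECp53KO_170 and 0.60 for ECp53KO_172, and 0.10 and 0.29 for the controls. The genes share their libraries, so this is a description across genes and carries no p-value. ECp53KO_170 is also in the denominator of the other ratios. Its trend thus enters their correlations with the opposite sign, and the value for ECp53KO_172 is not a separate trend. With transcript length the correlations were -0.43, 0.52, 0.00 and 0.12. The 22 genes with the shortest coding sequences (75 to 411 bases) had a median ratio of 1.64 in ECp53KO_170, and the 22 longest (582 to 1257 bases) of 1.46. The trend was not particular to ribosomal proteins. Over 10705 genes outside small RNA loci the correlation with transcript length in ECp53KO_170 was -0.44, with a median ratio of 1.02. Over the same genes, the correlation was 0.30 in ECp53KO_172, 0.16 in Ctrl_178 and 0.25 in Ctrl_182. Removing each library's trend with transcript length over all genes lowered the members' median difference from 0.31 to 0.15, with 74 of 82 still positive.

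**Figure D2:**
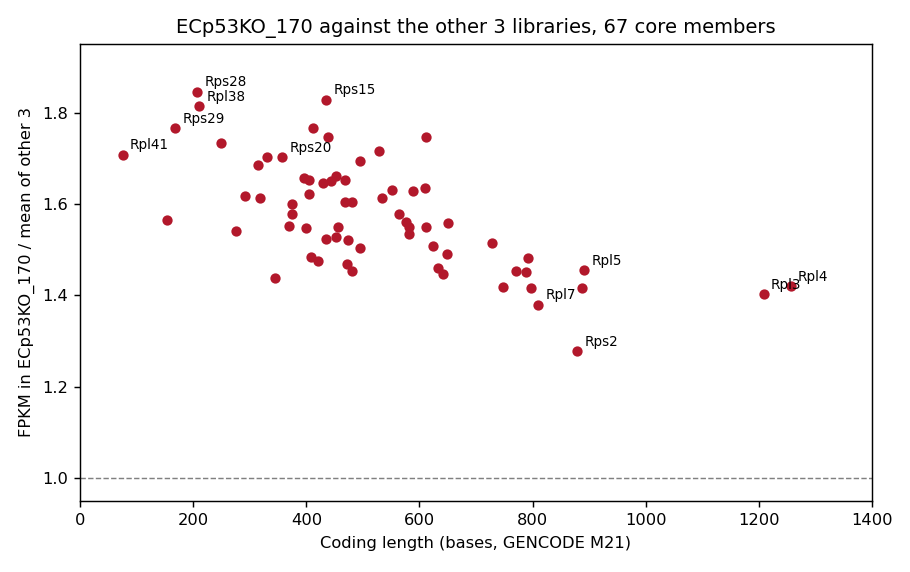
Ratio of FPKM in ECp53KO_170 to the mean of the other 3 libraries (vertical axis) against coding length in bases (horizontal axis), 1 point per core member above 200 FPKM. All 67 points lie above 1 (dashed line), and the ratio is higher for the short Rps28 and Rpl38 (1.85 and 1.81) than for the long Rpl4 (1.42).

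The genes of the MDM2-binding proteins were at levels within the range of the other core members. Rpl5, which with RPL11 and 5S RNA forms a particle that holds MDM2, was at 450 and 337 FPKM in the ECp53KO libraries and at 289 and 302 in the controls. Both ECp53KO libraries were above both controls, with a log2 difference of 0.40 ± 0.23 and a limma Benjamini-Hochberg adjusted p of 0.864. Rpl11, its partner, was at 1562 and 954 against 1018 and 932 FPKM, and the groups overlapped. Rpl23 was at 701 and 459 against 473 and 494 FPKM, with ECp53KO_172 below both controls. Rps7 was at 893 and 570 against 565 and 593 FPKM, and Rps27a, a fusion of ubiquitin and a small subunit protein, at 1018 and 629 against 602 and 675 FPKM. In both, ECp53KO_172 lay between the controls. Mdm2 itself, no member, was at 17.4 and 12.7 against 22.2 and 22.9 FPKM and did not overlap, with a log2 difference of -0.56 ± 0.19 and a limma Benjamini-Hochberg adjusted p of 0.864.

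The members higher in both ECp53KO libraries, in order of their p-value, were led by Rpl37rt, Rpl21, Rpl7l1, Rpl5, Rps23, Rpl27a, Rps24, Rps3, Rps16 and Rps3a1. Rpl21, a large subunit protein, was at 484 and 340 FPKM in the ECp53KO libraries and at 253 and 312 in the controls. Its log2 difference was 0.53 ± 0.26, and the limma Benjamini-Hochberg adjusted p was 0.864. Of the 10, Rpl37rt and Rpl7l1 are copies or paralogs and are described below. The other 7 had log2 differences of 0.36 to 0.47, and in each ECp53KO_172 was closer to the controls than to ECp53KO_170.

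Once each gene was set against the median core member of its own library, most of the differences were small. Of the 73 core members, 70 differed between the groups by less than 0.2 on the log2 scale. This comparison was chosen after the levels had been seen. The highest was Rpl21, with a relative difference of 0.18. The lowest were Rpl30 at -1.25 and Rpl26 at -1.19, followed among core members by Rps2 at -0.21.

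The low values of Rpl30, Rpl26, Rps27 and Rpl34 came with high values of near-identical copies. Rps27, which encodes a zinc-binding protein of the small subunit, was at 21.9 and 17.6 FPKM in the ECp53KO libraries and at 14.8 and 17.9 in the controls. Its retrocopy Rps27rt was at 4166 and 2695 against 2202 and 2610 FPKM, more than any other member on average. The copy thus held 99.3% to 99.5% of the pair's FPKM in every library, while 98.6% of the 51-base windows of the Rps27 transcript also occur in other transcripts. Since these reads cannot be told apart, the 2 rows are read here as 1 quantity. The summed pair had a log2 difference of 0.48.

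Rpl30 was the lone member that was lower in both ECp53KO libraries. Its copy was highest in ECp53KO_170 and lay between the controls in ECp53KO_172. Rpl30, a large subunit protein, was at 19.6 and 12.3 FPKM in the ECp53KO libraries and at 32.9 and 27.4 in the controls. The groups did not overlap, with a log2 difference of -0.90 ± 0.25 and a limma Benjamini-Hochberg adjusted p of 0.864. The row Gm12191, with a single mismatch over the 345 coding bases of Rpl30, was at 1817 and 1095 against 1001 and 1167 FPKM, and held 96.8% to 98.9% of the pair. The sum of both had a log2 difference of 0.36, near the median of all members, and the groups overlapped. The sign of Rpl30 thus differed between the row alone and the sum.

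Rpl26, also of the large subunit, was the only member with an unstable value. It was listed at 20.5 (ECp53KO_170) and 0.000682 (ECp53KO_172) against 22.03 (Ctrl_178) and 1.996 FPKM (Ctrl_182), so that libraries of the same group differed by 11.04 times or more. Gm15772 (chr5:3236390-3236928), with 2 mismatches over the 435 coding bases of Rpl26, was at 2018, 1303, 1127 and 1386 FPKM, and the summed pair had a log2 difference of 0.37. Rpl34 was at 116, 49.2, 59.2 and 63.3 FPKM, and the pseudogene row Rpl34-ps1, with 2 mismatches over 351 bases, at 1730, 1238, 1079 and 1310. With their copies, the sums of Rpl26, Rpl30 and Rpl34 lay 0.48 to 0.77 above the core median on the log2 scale. Gm15772 and Gm12191 were chosen after their values were seen.

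**Figure D3:**
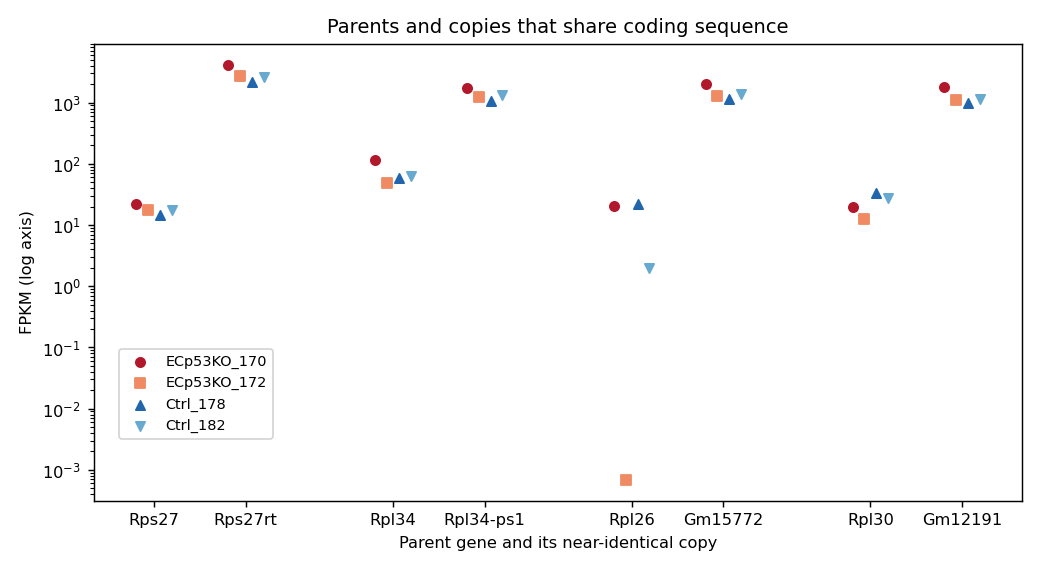
FPKM (log axis) of 4 core genes and of the near-identical copy next to each, 1 point per library. In each pair the parent lies at or below 116 FPKM and the copy at 1001 FPKM or above in all 4 libraries, and Rpl26 is at 0.000682 FPKM in ECp53KO_172.

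Near-identity did not always move the signal to the copy. Rpl37rt has 1 mismatch over the 291 coding bases of Rpl37, yet was at 6.37 and 3.16 FPKM in the ECp53KO libraries and at 1.79 and 2.36 in the controls. Rpl37, the parent, was at 297 and 176 against 183 and 193 FPKM. The copy thus held 0.971% to 2.097% of the pair. Its groups did not overlap, with a log2 difference of 0.86 ± 0.33 and a limma Benjamini-Hochberg adjusted p of 0.864. Its aligned bases are nearly those of a gene at a far higher level, so its own values are uncertain. Rps15a was low, at 49.5, 35.5, 33.9 and 35.5 FPKM, with no copy of high level among the rows that share its windows. Over all core members, a median of 52.6% of the 51-base windows also occurred in another gene's transcripts, and in 41 of 73 the share was at least 50%. Single levels of such genes are therefore uncertain. In the paralogs the median share was 19.8%. It was 91% for Rps27rt, 73.5% for Rpl37rt, 63.2% for Rpl36al and 57% for Rpl22l1, whose levels are uncertain too. The other paralogs were at 22% or below.

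Among the paralogs, Rps27l had the lowest difference between the groups once set against the core, and no difference passed the test in its own level. It was at 189 and 130 FPKM in the ECp53KO libraries and at 221 and 167 in the controls. The groups overlapped, and the log2 difference was -0.30 ± 0.26 (95% interval -0.97 to 0.38), with a limma Benjamini-Hochberg adjusted p of 0.871. Relative to the core median of its library it stood at -2.72 and -2.57 in the ECp53KO libraries and at -1.73 and -2.27 in the controls. Both ECp53KO libraries were then below both controls, by 0.64 on average. Without Ctrl_178 this difference was -0.37, and over the other libraries left out in turn it ran from -0.57 to -0.91. Part of the difference comes from the scale, as the core median subtracted was highest in ECp53KO_170. On this scale even Rpl10l, listed at 0 in all libraries, had a relative difference of -0.35. A separation without overlap was not particular to Rps27l. When set against the core median, where no share over all genes was computed, 14 of the 84 members were lower and 10 higher without overlap. Rpl22l1 and Rpl3l were among the lower ones.

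Set against its parent's copy, Rps27l came to 4.53% and 4.82% of the FPKM of Rps27rt in the ECp53KO libraries and to 10.1% and 6.41% in the controls. The log2 ratio differed by -0.78 without overlap (two-sided exact permutation p = 0.333, the smallest possible). Against the row Rps27 the difference was -0.55. The larger part of -0.78 came from Rps27rt, with a log2 difference of 0.48 against -0.30 for Rps27l. Such a ratio can separate the groups through the parent alone. For Rpl10l, listed at 0 in all libraries, the ratio to Rpl10 differed by -0.36 without overlap. Of all 82 members fitted, only Rpl30 and Rpl26, the genes with the copies described above, had a lower relative difference. As a reference, all 8 p53 targets listed for comparison (among them Cdkn1a and Phlda3) were lower without overlap, against 16.8% of all genes. Their median log2 difference was -1.47. By limma at an adjusted p of 0.05, 0 of the 8 were called lower, against 0.0882% of all genes. These targets were listed with earlier results of these data known, so their direction is no independent finding.

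**Figure D4:**
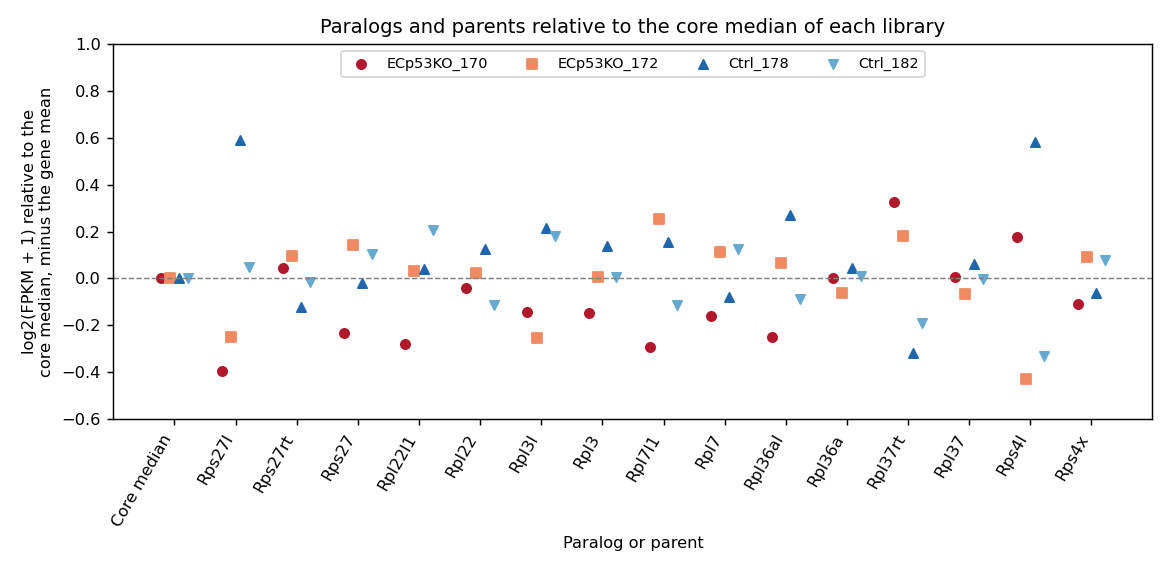
Log2(FPKM + 1) relative to the core median of the same library, after subtraction of each gene's mean over the 4 libraries, for paralogs and their parents, 1 point per library. For Rps27l both ECp53KO libraries lie below both controls, with Ctrl_178 the highest point. The same order holds for Rpl22l1, Rpl3l, Rpl3 and Rpl36a, and the reverse for Rps27rt and Rpl37rt. For Rps4l Ctrl_178 and ECp53KO_170 are the high libraries.

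Rpl22l1, a paralog that can replace Rpl22 when the latter is lost, was at a level of the same order as its parent. It was at 81.4 and 62.7 FPKM in the ECp53KO libraries and at 59.95 and 74.1 in the controls, and the groups overlapped. Rpl22 was at 153 and 99.2 against 101 and 94.2 FPKM. The paralog stood at 53.4% and 63.2% of its parent in the ECp53KO libraries and at 59.4% and 78.7% in the controls. Its log2 difference was 0.10 ± 0.21, and its sign was not stable. Removing the length trend gave -0.10, scaling each library to a sum of 1000000 gave -0.016, and leaving out ECp53KO_170 or Ctrl_178 gave -0.087 and -0.052. The coding sequences are 74.2% identical over the aligned part.

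Rpl36al, which encodes a protein almost like that of Rpl36a, was at 273 and 212 FPKM in the ECp53KO libraries and at 231 and 199 in the controls. Rpl36a was at 689 and 411 against 420 and 451 FPKM. The paralog thus gave a substantial part of the pair, 39.6% to 55.0% of its parent, with the groups overlapping in both genes. Rpl7l1, a relative of Rpl7 that acts in ribosome assembly, was at 33.03 and 30.02 against 26.5 and 24.1 FPKM. Its groups did not overlap, with a log2 difference of 0.31 ± 0.15 and a limma Benjamini-Hochberg adjusted p of 0.864. Rps4l, a copy of the X-linked Rps4x, was at 129 and 52.4 against 101 and 58.8 FPKM. Its libraries differed more within each group than between the groups.

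The tissue-restricted paralogs were near 0. Rpl3l, the form of Rpl3 made in heart and skeletal muscle, was at 1.56 and 0.480 FPKM in the ECp53KO libraries and at 0.944 and 1.09 in the controls. Rpl3 was at 760 and 527 against 548 and 551 FPKM, so that the muscle form came to 0.0912% to 0.205% of it. Rpl3l was highest in ECp53KO_170, the library with the highest cardiomyocyte sum, whose part in this level was not tested, and its groups overlapped. Rpl39l, made mainly in the testis, was listed at 0.271, 0.156, 0.282 and 0 FPKM. Rpl10l, the testis retrocopy of the X-linked Rpl10, was listed at 0 in all 4 libraries, against 843 to 1264 FPKM for Rpl10. These 2 genes were below the minimum for the fit. Of the 8 paralogs fitted, 0 were called by limma, against 0.0265% of all genes called higher and 0.0882% lower. At an unadjusted p of 0.05, 1 was higher (Rpl37rt), against 1.97% of all genes. A positive difference was found in 6 of the 8, against 51.7% of all genes. The paralogs' median log2 difference was 0.13, or -0.05 without ECp53KO_170.

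Other genes of the translation machinery showed the same dependence on ECp53KO_170. Over all genes tested, 51.7% had a positive difference. All 7 ribosomal proteins outside the name rule that were fitted (such as Rplp0 and Fau) had one, with a median of 0.29, or 0.02 without ECp53KO_170. Of 21 other genes with TOP messenger RNAs, such as elongation factors, 18 were positive, with a median of 0.24, or 0.05 without that library. Of 77 mitochondrial ribosomal proteins 68 were positive, with a median of 0.25, or 0.01 without it, and their level was far lower than that of the cytoplasmic proteins, with medians of 28.3, 20.99, 22.7 and 19.4 FPKM. In none of these lists was a gene called by limma at an adjusted p of 0.05, against 0.0265% of all genes called higher and 0.0882% lower. At an unadjusted p of 0.05, no gene of the first pair of lists was higher or lower, and 3 of the 77 mitochondrial ones were higher (Mrps6, Mrps31 and Mrpl40), against 1.97% of all genes.

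For the listed factors that assemble ribosomes, the median changed little without that library. Of 50 listed biogenesis genes, 44 had a positive difference, against 51.7% of all genes. Their median was 0.17, and it was 0.14 without ECp53KO_170. Without overlap, 20 were higher and 2 lower, against 19.1% and 16.8% of all genes. By limma 0 were called, against 0.0265% of all genes called higher and 0.0882% lower. At an unadjusted p of 0.05, 2 of the 50 were higher and 0 lower, against 1.97% and 2.82% of all genes. Rrp9, a component of the U3 small nucleolar particle, was at 14.6 and 9.82 FPKM in the ECp53KO libraries and at 8.01 and 6.53 in the controls. Nop16 was at 13.1 and 10.0 against 8.26 and 6.82 FPKM. Both genes were above the controls in both ECp53KO libraries.

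Many ribosomal protein genes carry small nucleolar RNAs or microRNAs within their introns. RefSeq places 60 small RNA loci between the start and end of 29 members. Whether they lie in introns or on the same strand was not checked. Of these loci 36 had a row of their own, 9 of them at 0 in all libraries, 21 at 0 in 1 to 3 libraries and 6 above 0 in all. Of the 27 fitted, 2 were higher and 8 lower without overlap, against 19.1% and 16.8% of all genes. Among them limma called 1 higher and 3 lower, against 0.0265% and 0.0882% of all genes. Snord4a, in Rpl23a, was listed at 314 and 361 FPKM in the ECp53KO libraries and at 0 in both controls (limma Benjamini-Hochberg adjusted p = 0.000151). Snord35a in Rpl13a was listed at 0 in both ECp53KO libraries and at 415 and 283 FPKM in the controls. Snord83b in Rpl3 was listed at 0 against 541 and 176 FPKM, and its call was lost in several alternatives, with limma adjusted p-values of up to 0.304.

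The groups also did not overlap in Snora70, Snora33, Snord33, Snora78 and Mir7079, which were lower in the ECp53KO libraries, and in Mir5121, which was higher. Of these, none was called, and Mir7079 and Snora33 were called in some of the alternatives. Snord33 (chr7:45126864-45126945) and Mir5121 (chr7:45126918-45126991) overlap in position within Rpl13a, so their opposite values are not those of separate stretches.

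The hosts named here had log2 differences near those of the other members. Rpl23a was at 2112 and 1337 FPKM in the ECp53KO libraries and at 1197 and 1303 in the controls. Rpl13a and Rpl3, hosts of loci listed at 0 in the ECp53KO libraries, had log2 differences of 0.41 and 0.20, each with overlap between the groups. The members with such a locus had a median log2 difference of 0.34, and those without one of 0.31. A listed 0 may be an estimate that failed, these loci are short (70 bases for Snord4a), and poly(A) selection does not target such RNAs. Their values are therefore given as listed, with no fold.

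RefSeq start windows were searched for a TOP-like start, a C at the start site followed by at least 4 pyrimidines. It was found in 12 of 54 core genes with a matched promoter (22.2%), in 1 of 9 paralogs, in 0 of 68 mitochondrial ribosomal proteins and in 2.67% of 17492 protein-coding genes. The match depends on the exact annotated start. Rps27 and its retrocopy both have such a start and Rps27l does not, as the windows from 10 bases before the start site to 20 bases from it show (GRCm38.p6, capitals mark the pyrimidine run). They lie at chr3:90213629-90213658 (minus strand), chr9:114982720-114982749 (minus strand) and chr9:66946076-66946105 (plus strand).
Rps27: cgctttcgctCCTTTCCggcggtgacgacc
Rps27rt: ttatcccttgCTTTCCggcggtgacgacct
Rps27l: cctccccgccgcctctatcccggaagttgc

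The p53 decamer consensus was searched by name on both strands, from 250 bases before to 50 bases after each start. It occurred in 4 of 54 core genes (7.41%) and 2 of 9 paralogs, against 8.54% of all protein-coding genes. Rps27l has 2 matches before its second annotated start, at chr9:66946193-66946222 and chr9:66946296-66946325, shown with 10 flanking bases on each side and the match in capitals. Rps27 and Rps27rt hold a match just after their start, at chr3:90213600-90213629 and chr9:114982692-114982721. A match is a description of the letters and not a bound site.
Rps27l, upstream: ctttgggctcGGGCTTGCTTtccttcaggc
Rps27l, downstream: gggcttgttgAGACTTGTCCgggcgacacg
Rps27: ctccctacgaGAACATGCCTgtgagttcct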

How the data were processed

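Poly(A)-selected, unstranded TruSeq libraries were sequenced as paired 51-base reads, per the labels' protocols. Per the submitters' processing notes the build was mm10 and the tools were Cufflinks 2.2.1, TopHat2 2.1.0, Trimmomatic 0.36, FastQC 0.11.5 and bcl2fastq 2.17. The sources used here give neither the gene annotation nor how reads with several matches were treated. The authors deposited FPKM per gene symbol, with no counts. Depth was estimated from the most frequent FPKM step of low genes.

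All 24346 rows were taken as log2(FPKM + 1), and 11332 with a mean of at least 1 FPKM were tested with limma 3.58.1 in R 4.3.3 (intensity trend, two-sided, Benjamini-Hochberg over all tested genes, threshold 0.05), which was tested on simulated data. The fit has 2 residual and 3.15 prior degrees of freedom. Differences are ECp53KO minus Ctrl. Level-based comparisons used values as listed. Positions are from RefSeq GRCm38.p6. Transcripts, lengths and shared 51-base windows are from GENCODE M21. Promoters are from RefSeq (GRCm38.p6).

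Members and lists were chosen with earlier results of these data known. Rpl41 was added to the large subunit list after the file was seen. Named genes are every paralog with its parent, up to 10 members per direction with the smallest p among those without overlap, the 10 highest, unstable estimates, members that act on MDM2 or p53, small RNA loci that differ without overlap by a log2 difference of at least 1, and other listed genes with an unadjusted p under 0.05. Alternatives were the pseudocount (0.1), the filter (none, 5 FPKM), 2 scalings, removal of small RNA loci or of the length trend, robust shrinkage, a threshold of 0.1 and leaving out each library. One called small RNA locus with its host, and a sequence of a copy, are not reported here.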

Additional observations from a re-analysis of the deposited data

How the results depend on the processing

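With 2 libraries per group, 0 members were called under every setting that was run. No paired analysis was possible because the labels of ECp53KO and Ctrl libraries have no number in common. The members' median log2 difference ran from -0.013 (without ECp53KO_170) to 0.64 (without ECp53KO_172) on leaving out a library, and from 0.15 to 0.32 otherwise. The members' share of all FPKM differed by 1.76 percentage points, or by 0.164 without ECp53KO_170 and 3.35 without ECp53KO_172. Of 57 named genes fitted, 4 changed call: Trp53, Snord83b, Mir7079 and Snora33. Rescaling each library to a sum of 1000000, which moved the median of all genes to -0.10, gave -0.016 for Rpl22l1 and -0.022 for Rps4l. Removing the length trend gave -0.10 for Rpl22l1, -0.042 for Rpl36al and -0.075 for Rps4l. Summing with the copy, chosen after seeing the data, gave 0.37 for Rpl26 and 0.36 for Rpl30. On leaving out each library, the log2 difference ran from -0.087 to 0.28 for Rpl22l1, -0.061 to 0.47 for Rpl3, -0.034 to 0.63 for Rpl39, -0.020 to 0.35 for Rpl36al, -0.082 to 0.66 for Rpl36a, -0.092 to 0.66 for Rpl37, -0.55 to 0.74 for Rps4l, -0.059 to 0.80 for Rps29 and -0.21 to 0.71 for Rpl41. It ran from -0.14 to 0.75 for Rps21, -0.032 to 0.76 for Rps20, -0.029 to 0.68 for Rpl11, -0.076 to 0.54 for Rpl23, -0.022 to 0.62 for Rps7, -0.019 to 0.68 for Rps27a, -0.44 to 0.34 for Rpl3l and -3.05 to 1.37 for Rpl26. A group left with 1 library is assumed to vary like the other. Apart from the sums, whose construction shows it, the cause was not tested.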
